A study of Mus with 2 samples.

Results

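Ribosome biogenesis genes encode the nucleolar machinery that makes ribosomes, and 38 of them were followed here through sorted hematopoietic stem cells (HSCs) with and without Id2. The members were the rows whose gene symbol is on a fixed list of polymerase subunits, snoRNP proteins and assembly factors. All 38 symbols were found, each on 1 of the 27998 gene rows, and all 38 were detected in both libraries. They were ordered by role into RNA polymerase I (3 members), the box C/D snoRNP (3), the box H/ACA snoRNP (4), abundant nucleolar proteins (3), small subunit factors (8) and large subunit factors (17).

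Ribosomes are built in the nucleolus, where RNA polymerase I transcribes the precursor of the large ribosomal RNAs. Small nucleolar ribonucleoproteins (snoRNPs) methylate or pseudouridylate that precursor at sites chosen by their guide RNAs, and assembly factors fold it, cut it and load ribosomal proteins to give the small and large subunits. Quiescent stem cells are known for low protein synthesis, and the genes of this machinery are classical targets of MYC and of growth signals.

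The cells carried the surface phenotype of long-term stem cells (LSK, FLT3-, CD150+, CD48-) and came from tibias and fibulas of mice 8 to 12 weeks old. The control mice were Mx1-Cre Id2+/+. The others were Mx1-Cre Id2Δ/Δ, a deletion made by giving pIpC, a synthetic double-stranded RNA, to mice with conditional alleles. By the study's account, cells of both genotypes were taken 2 weeks after pIpC. Both genotypes carry Mx1-Cre, an interferon-driven recombinase that is active in blood cells and also in other tissues, and the comparison addresses what loss of Id2, an inhibitor of E-protein transcription factors, does to these cells. Bone marrow of 5 mice was pooled for each genotype, 1000 cells were sorted and 1 10x Chromium library was made, so that genotype, pool and library cannot be told apart. With 1 library per genotype there was no test of any difference, and every interval below is an exact 95% interval that covers counting error alone.

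The Id2+/+ library held 8612217 unique molecular identifiers (UMIs, each standing for 1 captured transcript) and the Id2Δ/Δ library 17140713. Barcodes called as cells numbered 333 and 625 after a mitochondrial limit. The call set a floor of 4393 UMIs in the Id2+/+ library and 6177 in the Id2Δ/Δ library. Shallower cells therefore entered from the Id2+/+ library alone. Clusters led by markers of other lineages were set aside, namely erythroid-like cells (35 and 156), neutrophil-like cells (27 and 40) and haemoglobin-rich cells (9 and 13), which left 262 Id2+/+ and 416 Id2Δ/Δ retained cells with a median of 7081 and 9663 UMIs. The libraries shared 1 cell barcode, and 0 among the retained cells. In the retained cells the defining HSC markers summed to 967 CPM (UMIs per 1000000 UMIs) in the Id2+/+ library and 750 in the Id2Δ/Δ library, against 171 and 164 CPM in the erythroid-like cells and 86.6 and 49.6 CPM in the neutrophil-like cells. Id2 itself had 22 UMIs in 20 of the 262 Id2+/+ cells and 0 in the 416 Id2Δ/Δ cells, which at a limit of 3 counts allows a share of up to 0.721% of cells with a UMI. Over all barcodes, Id2 had 99 UMIs in the Id2+/+ library and 4 in the Id2Δ/Δ library. Whether the tags of Id2 lie inside the deleted part was not examined. Droplets with 1 to 100 UMIs held 46.3% of all UMIs in the Id2+/+ library and 22.4% in the Id2Δ/Δ library, and such free RNA was estimated from haemoglobin to make up 10.5% and 5.41% of the retained cells' UMIs.

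**Figure D1:**
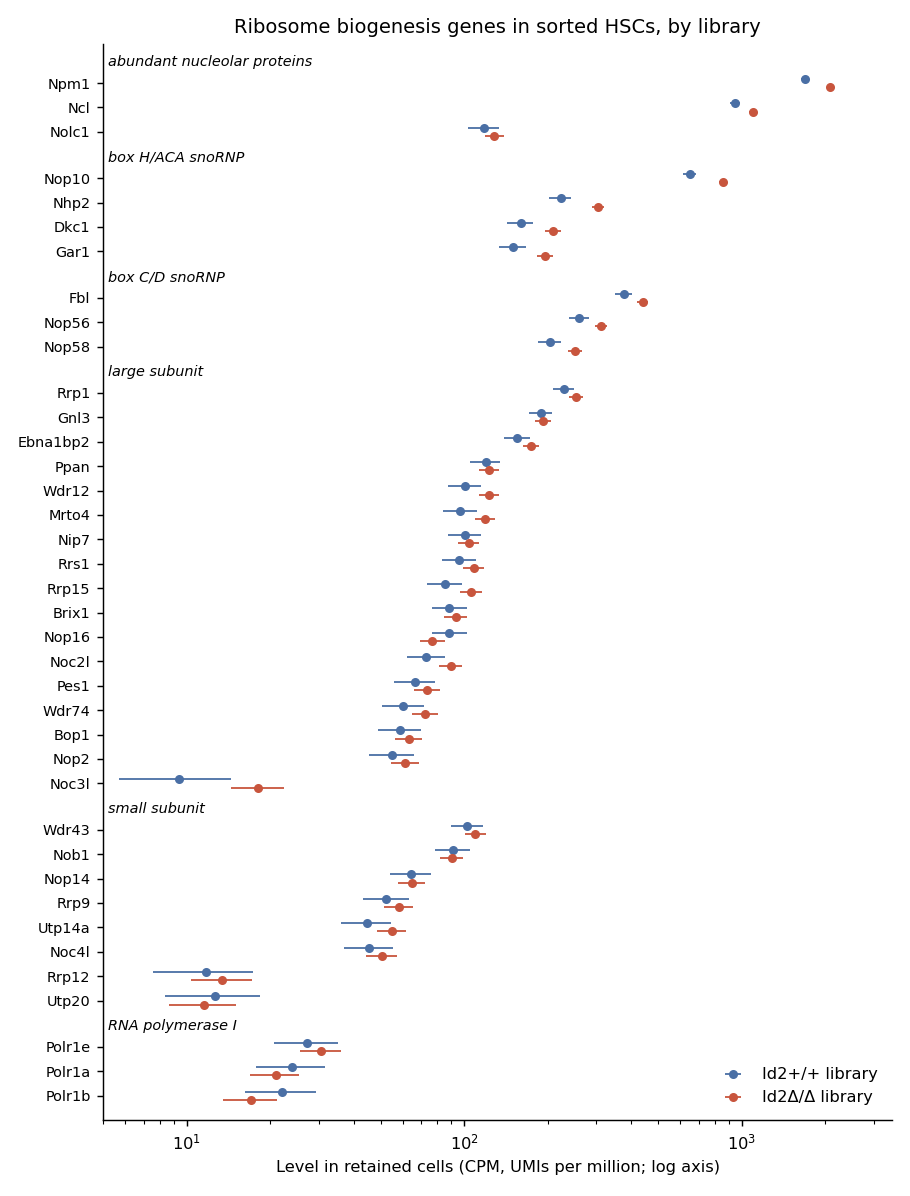
Level of each of the 38 members in retained cells (CPM, log axis) in the Id2+/+ library (blue, 262 cells) and the Id2Δ/Δ library (red, 416 cells), grouped by role, with exact 95% counting intervals. Npm1 is highest, with 1698 and 2089 CPM, and 4 members lie under 20 CPM in the Id2Δ/Δ library.

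The members took up 6956 CPM of the retained Id2+/+ cells (interval 6845 to 7069) and 8256 CPM of the retained Id2Δ/Δ cells (8174 to 8338). Since the assay tags each transcript near its end, CPM values compare transcripts between genes without a correction for length. In pooled counts, more cells with a gene on and more RNA per cell cannot be told apart, and the shares of cells are given further on. Npm1 and Ncl alone made up 38.02% of the members' UMIs in the Id2+/+ library and 38.6% in the Id2Δ/Δ library.

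In both libraries the order of levels began with Npm1, Ncl, Nop10, Fbl and Nop56. Npm1 encodes nucleophosmin, a chaperone of preribosomal particles, and Ncl encodes nucleolin, which binds the precursor rRNA. Npm1 stood at 1698 CPM (1643 to 1754) in the Id2+/+ library and at 2089 (2048 to 2131) in the Id2Δ/Δ library. Ncl stood at 947 CPM (906 to 990) and 1098 (1068 to 1129). The intervals of the 4 highest members did not overlap within either library. Below them neighbours ran together, since Rrp1, Nhp2 and Nop58 in the Id2+/+ library, at 228, 223 and 204 CPM, had overlapping intervals. At the other end of the Id2+/+ library lay the large subunit factor Noc3l with 9.37 CPM, the small subunit factors Rrp12 and Utp20 with 11.7 and 12.7 CPM, and Polr1b and Polr1a, the large catalytic subunits of RNA polymerase I, with 22.0 and 23.9 CPM.

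Between the libraries, the summed members were higher in the Id2Δ/Δ cells, with a ratio of Id2Δ/Δ over Id2+/+ of 1.19 (1.16 to 1.21). The ratio was above 1 for 33 of the 38 members, against 41.9% of the 10458 genes that had 20 or more UMIs when the libraries were added together. The median log2 ratio was 0.16 over the members and -0.08 over all genes tested. A level at least 25% higher in the Id2Δ/Δ library was found for 5 members, namely Noc3l, Nhp2, Nop10, Dkc1 and Gar1, a share near the 12.4% of all genes that were so much higher. Only Polr1b was at least 20% lower, with a ratio below 0.8, against 27.5% of all genes. With a minimum of 100 UMIs, which 36 members met, it was still 1 member at least 20% lower and 5 at least 25% higher, against 18.1% and 10.8% of 6785 genes, and 32 were above 1, against 47.8%. The counting interval lay above 1 for 14 members, below 1 for 0 and included 1 for 24, against 10.2% of all genes above 1 and 13.3% below. Such intervals narrow with more UMIs, and the shares over all genes, here and in other kinds of cells, were not matched by count. On the CPM scale the members thus stood out by small ratios in 1 direction and by few low ones, not by large ratios, and this rested on the scaling. A scaling with edgeR's TMM factors moved the median of all genes to 0.02 and that of the members to 0.27. With it 15 members were at least 25% higher and 0 at least 20% lower, while all genes split into 20.3% higher and 20.8% lower. With free RNA subtracted 17 members were at least 25% higher, against 16.3% of all genes. Other alternatives, given further on, made the difference smaller. Over 21 alternatives the summed ratio ran from 1.11 to 1.30. Over 18 of them the members' median ran from 0.0947 to 0.30, and members at least 25% higher numbered from 4 to 17. The summed ratio was 1.13 in cells with Xist alone, 1.15 with Y-linked genes alone and 1.246 in the remaining cells.

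The box H/ACA snoRNP, which turns chosen uridines of rRNA into pseudouridine and also forms part of telomerase, had the highest summed ratio of the 6 roles. Its 4 members summed to 1184 CPM in the Id2+/+ library and 1563 CPM in the Id2Δ/Δ library, a ratio of 1.32 (1.26 to 1.38). Nop10, a small core protein of the particle, went from 652 CPM in the Id2+/+ library to 855 in the Id2Δ/Δ library, a ratio of 1.31 (1.23 to 1.40). Nhp2, which binds the guide RNA, had 223 and 304 CPM and a ratio of 1.36 (1.23 to 1.52). Dkc1 encodes dyskerin, the pseudouridine synthase itself. It had 160 and 209 CPM, with a ratio of 1.31 (1.16 to 1.48), and Gar1, which helps release the substrate, had 150 and 195 CPM, with a ratio of 1.31 (1.15 to 1.49). All 4 ratios thus lay in a narrow range and all 4 intervals lay above 1. In GRCm38.p6, the mm10 assembly, Nop10 is at chr2:112261926-112262898, Nhp2 at chr11:51619773-51623718, Dkc1 at chrX:75095854-75109776 and Gar1 at chr3:129824912-129831407. Nhp2 overlaps the gene Rmnd5b and Dkc1 overlaps Mpp1 and a snoRNA gene, and how strand entered the counting is not given in the sources used here.

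Free RNA moved with 3 of these genes and not with Dkc1. In droplets with 1 to 100 UMIs, Nop10 had 481 CPM in the Id2+/+ library and 721 in the Id2Δ/Δ library, Nhp2 had 329 and 449, Gar1 had 209 and 253, and Dkc1 had 209 and 198. With the free RNA profile subtracted, the ratio in retained cells was 1.29 for Nop10, 1.41 for Nhp2, 1.36 for Dkc1 and 1.35 for Gar1. With cells thinned to 5800 UMIs, which also left out the 66 Id2+/+ cells below that depth and 0 Id2Δ/Δ cells, the ratios of these 4 genes were 1.245, 1.18, 1.26 and 1.17, and within the HSC-like clusters described further on they were 1.20, 1.35, 1.17 and 1.19. The direction was thus the same in these settings. All 4 genes stayed at least 25% higher with free RNA subtracted, but of the 4 only Dkc1 did so after thinning and only Nhp2 in the HSC-like clusters.

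The box C/D snoRNP, the particle that places methyl groups on the ribose of rRNA, had a smaller ratio. Its 3 members summed to 840 CPM and 1002 CPM, a ratio of 1.19 (1.13 to 1.26). Fbl, the methyltransferase fibrillarin, had 376 CPM in the Id2+/+ library and 440 in the Id2Δ/Δ library, with a ratio of 1.17 (1.08 to 1.27). The scaffold proteins Nop56 and Nop58 had ratios of 1.20 (1.09 to 1.32) and 1.23 (1.10 to 1.38). The intervals of the summed C/D ratio and the summed H/ACA ratio came close without overlapping, the first ending at 1.261 and the second starting at 1.262.

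Among the abundant nucleolar proteins, Npm1 had a ratio of 1.23 (1.18 to 1.28) and Ncl one of 1.16 (1.10 to 1.22). Nolc1, a chaperone of snoRNPs, had 118 CPM in the Id2+/+ library and 129 in the Id2Δ/Δ library, with an interval of the ratio that included 1 (0.943 to 1.27). Npm1 lies at chr11:33152498-33164142 and Ncl at chr1:86344719-86359455, where Ncl carries snoRNA genes within its bounds, as do Nop56, Nop58, Dkc1, Wdr43, Gnl3 and Ppan.

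The 17 large subunit factors summed to 1672 CPM in the Id2+/+ library and 1853 in the Id2Δ/Δ library, a ratio of 1.11 (1.07 to 1.15). The ratio was above 1 for 16 of them and Nop16 was the exception. Of the 3 partners of the PeBoW complex, which acts on the large subunit rRNA, Wdr12 had a ratio of 1.22 (1.04 to 1.44), while the intervals of Pes1 and Bop1 included 1. Mrto4, a placeholder for a stalk protein of the ribosome, had 97.0 and 119 CPM and a ratio of 1.23 (1.05 to 1.45). Split by Xist and Y-linked UMIs, as described further on, it was 1.38 with Xist alone, 0.927 with Y-linked genes alone and 1.32 otherwise. Rrp15 and Noc2l also had intervals above 1, with ratios of 1.24 (1.05 to 1.48) and 1.22 (1.02 to 1.48). Noc3l had the highest ratio of all members, 1.94 (1.18 to 3.33), on 20 UMIs in the Id2+/+ library and 85 in the Id2Δ/Δ library. In cells of the lowest tertile of a cycle score that ratio was 1.11 and in the highest tertile 2.99. Gnl3, which encodes nucleostemin, had near-equal levels of 189 and 193 CPM, and Rrp1 had 228 and 253 CPM with a ratio of 1.11 (0.997 to 1.23). Nop16 had 88.6 CPM in the Id2+/+ library and 76.8 in the Id2Δ/Δ library, and its interval included 1 (0.725 to 1.04).

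Small subunit factors differed less. The 8 members summed to 425 CPM in the Id2+/+ library and 453 in the Id2Δ/Δ library, with a ratio of 1.07 whose interval included 1 (0.987 to 1.15). All 8 single intervals included 1 as well. Nob1, the nuclease that makes the last cut of the small subunit rRNA, had 90.9 and 90.3 CPM, and Nop14, a part of the early processome, had 64.2 and 64.7 CPM. These 2 genes therefore had levels that the counts could not tell apart, with intervals of the ratio from 0.836 to 1.18 for Nob1 and from 0.820 to 1.24 for Nop14.

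RNA polymerase I was the role with a summed ratio below 1, though its interval included 1. Its 3 subunits summed to 73.1 CPM in the Id2+/+ library and 68.5 in the Id2Δ/Δ library, a ratio of 0.937 (0.771 to 1.14). Polr1b, the second-largest subunit, had 22.0 and 17.1 CPM, a ratio of 0.775 (0.534 to 1.14) on 47 and 80 UMIs. Polr1a had 23.9 and 20.9 CPM and Polr1e had 27.2 and 30.5 CPM, so that the 3 subunits did not share a direction. With all called cells kept, the ratios were 1.09 for Polr1b, 1.20 for Polr1a and 1.17 for Polr1e. All 3 then lay above 1, with intervals that included 1. In cells split by Xist and Y-linked UMIs, as described further on, the ratio of Polr1b was 0.481 (0.288 to 0.817) with Xist alone. It was 0.815 (0.362 to 1.86) with Y-linked genes alone and 1.77 (0.765 to 4.58) in the remaining cells.

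**Figure D2:**
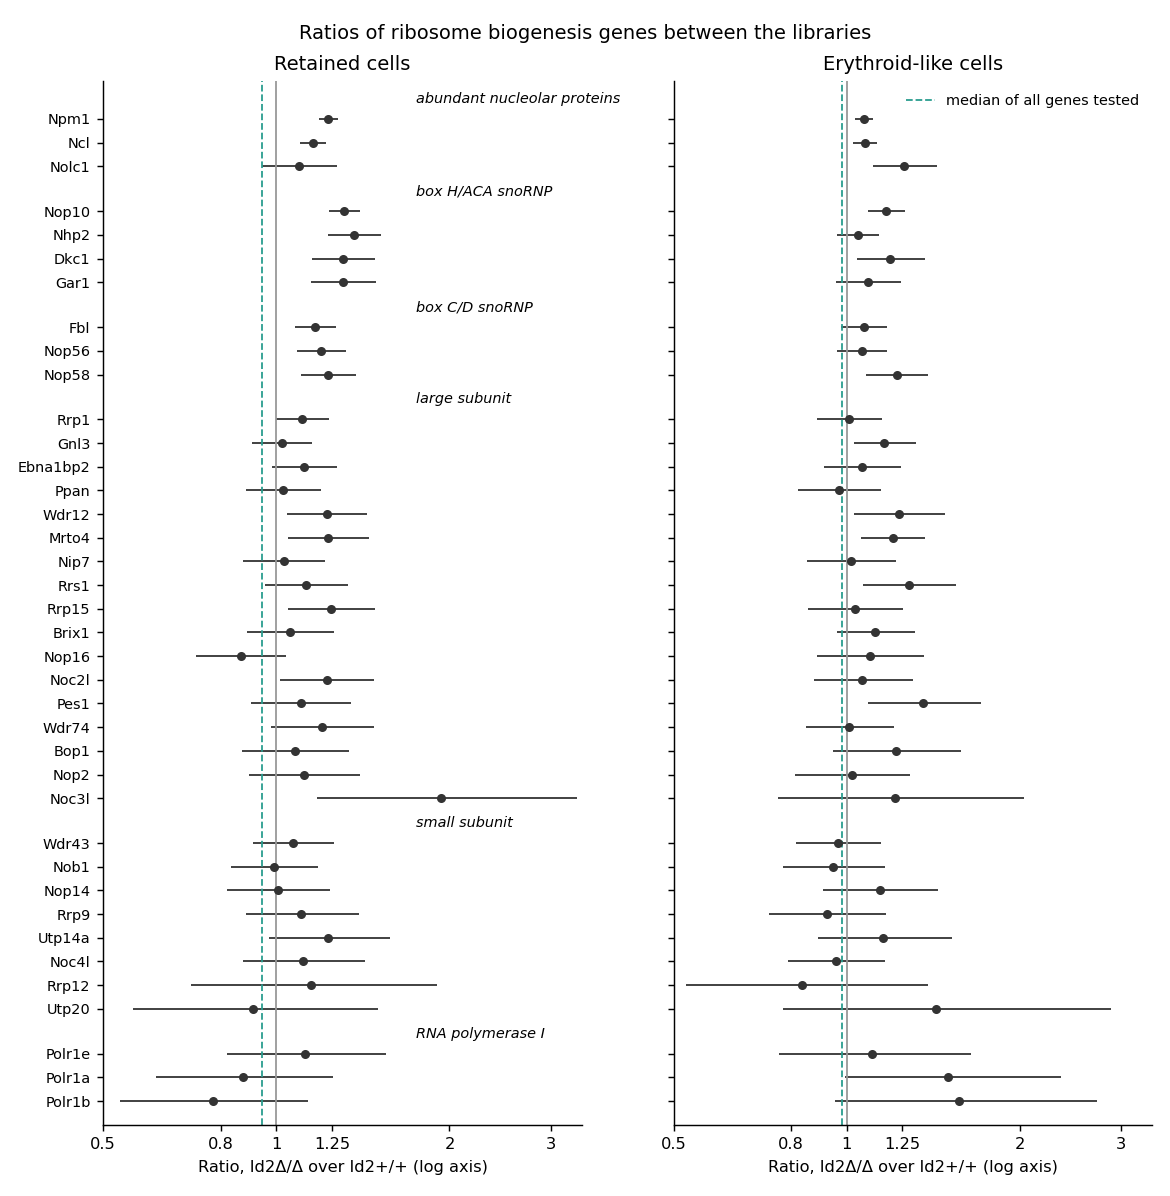
Ratio of each member's CPM, Id2Δ/Δ over Id2+/+ (log axis), in retained cells (left) and erythroid-like cells (right), with exact 95% counting intervals; the solid line marks 1 and the dashed line the median of all genes tested. In retained cells the 4 box H/ACA genes lie at 1.31 to 1.36, and in erythroid-like cells at 1.045 to 1.19.

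The further genes of the pathway, 132 that are not members, gave a smaller shift in the same comparison. Their median log2 ratio was 0.10, with 87 above 1, 19 (14.4%) at least 25% higher and 11 (8.33%) at least 20% lower, against the 12.4% and 27.5% of all genes, and their sum went from 9032 to 9740 CPM, a ratio of 1.08 (1.06 to 1.10). Factors that trim the ends of rRNA, chiefly the nuclear exosome, had the highest median of the 5 lists, 0.26 over 14 genes, with 6 at least 25% higher and 0 at least 20% lower. The exosome subunit Exosc8 had 84.4 CPM in the Id2+/+ library and 132 in the Id2Δ/Δ library, a ratio of 1.56 (1.32 to 1.85). Assembly factors of snoRNPs had a median of 0.17 over 9 genes, and Shq1, the chaperone that holds dyskerin before it enters the H/ACA particle, had a ratio of 1.54 (1.08 to 2.23) on 42 and 142 UMIs. Naf1, another H/ACA assembly factor, had 34.2 and 30.5 CPM, on the other side of 1. The list of large subunit factors had a median of 0.10 over 49 genes, with 7 at least 25% higher and 2 at least 20% lower. Rrp1b, Rbm28 and Mak16 had ratios of 1.45, 1.43 and 1.39, and Gnl3l, Nsa2 and Gltscr2 had intervals below 1, with ratios of 0.607 (0.406 to 0.914), 0.870 (0.767 to 0.989) and 0.905 (0.837 to 0.979). The list of small subunit factors had a median of 0.03 over 47 genes. RNA polymerase I and its factors had a median of 0.07 over 13 genes, with 0 at least 25% higher and 4 at least 20% lower. The initiation factor Rrn3 was among those 4, with 19.7 and 12.6 CPM and a ratio of 0.640 (0.423 to 0.974), as was Taf1d, with 127 and 102 CPM and a ratio of 0.797 (0.685 to 0.928).

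Genes of the finished ribosome were read beside them. Proteins of the cytosolic ribosome summed to 302320 CPM in the Id2+/+ library and 309499 in the Id2Δ/Δ library, a ratio of 1.02 (1.02 to 1.03), with a median log2 ratio of 0.08 and a mean of -0.12 over 82 genes, of which 56 were above 1, 1 was at least 25% higher and 13 were at least 20% lower. Those of the mitochondrial ribosome went from 7621 to 8792 CPM, a ratio of 1.15 (1.13 to 1.17), with a median of 0.18 over 76 genes, of which 68 were above 1, 13 at least 25% higher and 1 at least 20% lower. Of all genes tested, 41.9% were above 1, 12.4% at least 25% higher and 27.5% at least 20% lower. Small ratios in 1 direction were thus not particular to the members, since the mitochondrial list had them too. The cytosolic list also had most of its genes above 1. Its shares at least 25% higher (1.22%) and at least 20% lower (15.9%) were both under those of all genes.

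Several other measures moved with the genotype in the retained cells. Lists of S phase and G2/M genes had median log2 ratios of 0.37 and 0.33, and a list of immediate early and heat shock genes linked to tissue dissociation had -0.97. The platelet-biased HSC markers summed to 1418 CPM in the Id2+/+ library and 2175 in the Id2Δ/Δ library, and markers of erythroid cells to 3022 and 2587 CPM. Neutrophil markers summed to 1113 and 654 CPM. Their part in the members' ratio was not tested, but the ratio was taken within narrower sets of cells. Within the lowest, middle and highest tertile of cells by the summed S and G2/M genes, the ratio of the summed members was 1.18 (1.13 to 1.23), 1.26 (1.22 to 1.31) and 1.15 (1.12 to 1.18). These tertiles were taken in each library and cover higher scores in the Id2Δ/Δ library. With tertiles limited by the same scores in both libraries, which hold 99, 103 and 60 Id2+/+ cells and 127, 123 and 166 Id2Δ/Δ cells, the ratio was 1.14 (1.09 to 1.19), 1.18 (1.14 to 1.22) and 1.11 (1.08 to 1.14). The pools also differed in the sexes of their cells. Among cells where Xist was seen without Y-linked genes (84 Id2+/+ and 231 Id2Δ/Δ) the ratio was 1.13 (1.09 to 1.16). Among those where Y-linked genes were seen without Xist (93 and 90) it was 1.15 (1.11 to 1.20). In the remaining cells, with both or neither (85 and 95), it was 1.246 (1.20 to 1.29). With cells thinned to 5800 UMIs and the shallower ones left out it was 1.12. Only Id2+/+ cells could be left out so, since the Id2Δ/Δ cells were called from 6177 UMIs upwards. Dkc1 and Utp14a lie on the X chromosome, and the ratio of Dkc1 was 1.34 (1.11 to 1.63) in the first of these sets and 1.27 (0.984 to 1.65) in the second. The ratio of Nhp2 was 1.10 in the first set, 1.36 in the second and 1.84 in the remaining cells, and that of Gar1 was 1.45, 1.07 and 1.23.

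The members were then compared across the kinds of cells that the sort contained. In the erythroid-like cells, early red cell progenitors with a median of 37549 and 40039 UMIs, they took up 9471 CPM in the Id2+/+ library (9306 to 9638) and 10357 in the Id2Δ/Δ library (10278 to 10437). The ratio between the libraries was 1.09 (1.07 to 1.11). It was above 1 for 32 of the 38 members against 49.4% of 8790 genes, at least 25% higher for 6 against 14.8%, and at least 20% lower for 0 against 22.7%. The median log2 ratio was 0.12 over the members and -0.03 over all genes. As in the retained cells, small ratios in 1 direction made up the difference and the share at least 25% higher was near the background. The intervals lay above 1 for 11 members, against 7.97% of genes, and below 1 for 0, against 8.46%. Pes1 had a ratio of 1.36 (1.09 to 1.71), Rrs1, which brings a small rRNA into the large subunit, 1.28 (1.07 to 1.55), and Nolc1 1.26 (1.11 to 1.43). The H/ACA genes had smaller ratios than in the retained cells, with a summed ratio of 1.12 (1.07 to 1.18), and Nhp2 had 486 and 508 CPM. RNA polymerase I, below 1 in the retained cells, had the highest summed ratio of the 6 roles here, 1.34 (1.06 to 1.73) on 59.1 and 79.5 CPM, with Polr1b at 1.57 (0.955 to 2.72) and Polr1a at 1.503 (0.994 to 2.36), on 18 and 26 UMIs in the Id2+/+ library. The Id2+/+ values here rest on 35 cells, and the erythroid-like clusters mostly followed the library. They held 8, 27 and 0 Id2+/+ cells and 80, 0 and 76 Id2Δ/Δ cells, so cluster and library cannot be told apart here.

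Within each library the erythroid-like cells held more of the members' RNA than the retained cells, by 1.36-fold (1.33 to 1.39) in the Id2+/+ library and 1.255-fold (1.24 to 1.27) in the Id2Δ/Δ library. The members' median log2 ratios were 0.24 and 0.19, and those of all genes -0.27 and -0.30. At least 25% higher were 15 of the 38 members in the Id2+/+ library, against 26.9% of genes, and 12 in the Id2Δ/Δ library, against 25.6%, with 8 members in both, against 21.4% of genes. The level was above that of the retained cells in both libraries for 27 members, against 33.7% of genes, below it in both for 4, against 54.8%, and on opposite sides for 7. By the mean log2 ratio of the 2 libraries, among the 36 members with at least 100 UMIs, Mrto4, Noc4l and Nolc1 had the highest ratios. Mrto4 went from 97.0 CPM in retained cells to 214 in erythroid-like cells of the Id2+/+ library, and from 119 to 257 in the Id2Δ/Δ library. Noc4l, a small subunit factor, went from 45.5 to 98.6 CPM and from 50.6 to 94.3 CPM. Nolc1 went from 118 to 216 CPM and from 129 to 272 CPM. All 3 thus came near to a doubling in each library, and Nhp2 was close to them with ratios of 2.18 (1.94 to 2.46) and 1.67 (1.57 to 1.78).

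By the same mean, the lowest ratios of erythroid-like over retained cells belonged to Polr1b, Nop10 and Rrp1, although the libraries did not give 1 order and Polr1b was above 1 in the Id2Δ/Δ library. Nop10 went from 652 to 612 CPM in the Id2+/+ library, with an interval that included 1 (0.860 to 1.03), and from 855 to 717 CPM in the Id2Δ/Δ library, a ratio of 0.839 (0.804 to 0.875). Rrp1 had ratios of 0.953 (0.821 to 1.11) and 0.868 (0.803 to 0.939). Polr1b went from 22.0 to 13.6 CPM in the Id2+/+ library and from 17.1 to 21.4 CPM in the Id2Δ/Δ library, with both intervals including 1. Nop10 and Nhp2, partners in 1 particle, therefore stood at opposite ends of this comparison.

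**Figure D3:**
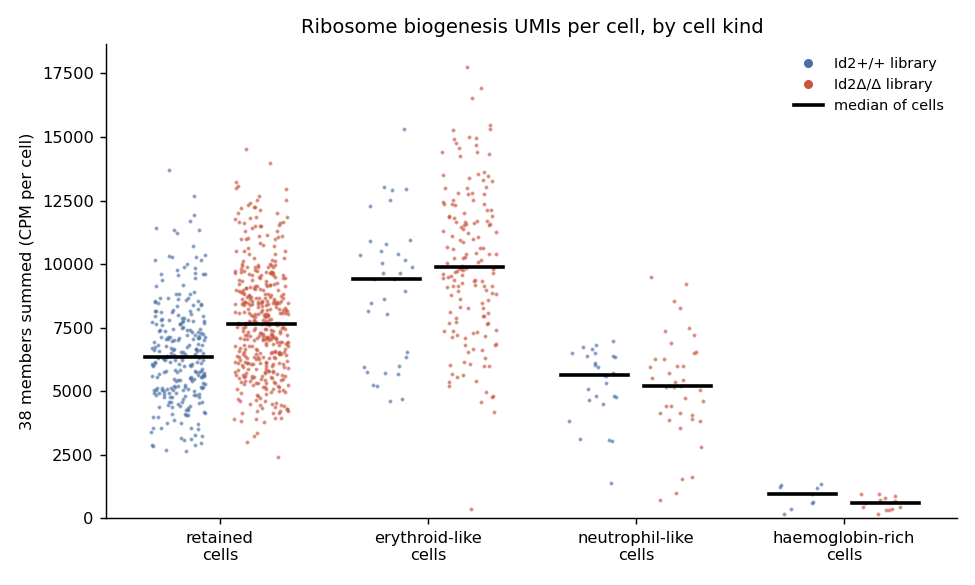
UMIs of the 38 members scaled to CPM within each cell, by kind of cell and library; black bars are medians over cells. Medians of the retained cells are 6363 (Id2+/+) and 7648 (Id2Δ/Δ) and those of the erythroid-like cells 9432 and 9898, while haemoglobin-rich cells lie near the floor.

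Neutrophil-like cells had lower levels than the retained cells, with 5432 CPM in the Id2+/+ library and 5640 in the Id2Δ/Δ library, which was 0.781 (0.748 to 0.815) and 0.683 (0.661 to 0.706) of the retained level. Of the 38 members, 29 were below the retained level in both libraries and 20 of these were at least 20% lower in both, against 64.4% and 48.6% of 8726 genes, so that the share at least 20% lower was near the background. Npm1 went from 1698 to 992 CPM in the Id2+/+ library and from 2089 to 1016 in the Id2Δ/Δ library. Above the retained level in both libraries were 4 members, against 18.6% of genes, among them Nhp2, with 377 and 355 CPM, and Nop10, with 823 and 903 CPM. Between the libraries the neutrophil-like sums differed by a ratio of 1.04 whose interval included 1 (0.988 to 1.09), with intervals above 1 for 2 members, Nop56 and Mrto4, against 5.3% of 5115 genes, and below 1 for 0, against 5.9%. In the haemoglobin-rich cells, whose UMIs are nearly all globin, the members had 74 and 69 UMIs, or 912 CPM (716 to 1145) and 617 CPM (480 to 781). The droplets with 1 to 100 UMIs held 9990 and 9886 CPM, above the retained cells and near the erythroid-like ones.

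Single retained cells spread widely. The 10th percentile, median and 90th percentile of the members per cell were 4138, 6363 and 9159 CPM in the Id2+/+ library and 5129, 7648 and 10733 CPM in the Id2Δ/Δ library, so most of the cells of 1 library lay within the range of the other. After thinning to 5800 UMIs, which left out 66 Id2+/+ and 0 Id2Δ/Δ cells, a cell held a median of 17 of the 38 members in the Id2+/+ library and 18 in the Id2Δ/Δ library. Npm1 was then seen in all 196 and 416 cells. Nhp2 was seen in 70.9% (64.0 to 77.2, exact binomial) and 78.6% (74.3 to 82.5) of cells, against 69.1% and 87.0% before thinning. Dkc1 was seen in 53.6% (46.3 to 60.7) and 63.0% (58.1 to 67.6), against 64.5% and 80.3% before. Noc3l was seen in 4.59% (2.12 to 8.54) and 9.13% (6.55 to 12.3), against 7.63% and 18.0% before, and Polr1b in 14.3% (9.71 to 19.98) and 8.89% (6.34 to 12.1), against 16.03% and 16.3% before. Since free RNA contains these genes in all droplets, no such share was read as a share of expressing cells.

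Clustering of the retained cells gave 7 clusters that mostly followed the library, so a cluster cannot be told apart from its library. The lowest level of the members was in a cluster of 172 Id2+/+ cells led by Fos, Dusp1 and other immediate early genes, with 6045 CPM (5903 to 6188). Its counterpart in the Id2Δ/Δ library, led by Cd74 and Iigp1 (205 of 211 cells), had 6867 CPM (6745 to 6990). Both had the lowest S phase levels, 1861 and 1941 CPM, and HSC markers of 1227 and 1071 CPM. Taking these HSC-like clusters alone, the ratio of the summed members between the libraries was 1.15, and 26 members were above 1, against 45.0% of all genes. A cluster led by the mitotic genes Ccnb2 and Cenpa (9 and 46 cells) had 6430 CPM (6220 to 6645), although its G2/M list stood at 9174 CPM.

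Higher levels were found in clusters with many S phase transcripts. These clusters were also the deepest, with medians of 10598 to 22403 UMIs per cell, against 6416 to 9620 in the others. The part of depth was not tested. A cluster of 71 Id2+/+ cells, called platelet-biased HSC-like from its markers, had 8494 CPM (8295 to 8697) of the members and 5289 CPM of S phase genes. A cluster of 80 Id2Δ/Δ cells led by the replication genes Ung and Hells had 9490 CPM (9302 to 9681). The highest level, 9671 CPM (9467 to 9879), was in 58 Id2Δ/Δ cells led by the platelet genes Pf4 and Gp1bb, whose S phase list stood at 5040 CPM. A cluster led by Aurkb and Ube2c (4 and 27 cells) had 9071 CPM (8840 to 9307), with 4856 CPM of S phase and 12400 CPM of G2/M genes. Of the 36 members with at least 100 UMIs, 14 were highest in the Pf4-led cluster, 9 in the Ung-led cluster, 7 in the Aurkb-led cluster and 5 in the cluster of 71 Id2+/+ cells, against 10.4%, 10.6%, 20% and 11.1% of the 6785 genes with as many UMIs. At the low end, 15 had their lowest level in the Fos-led cluster and 12 in the Ccnb2-led one, against 16.5% and 17.2% of those genes. Nhp2 ranged from 149 CPM (128 to 173) in the Fos-led cluster to 477 CPM (425 to 534) in the Aurkb-led cluster, a wider range in proportion than that of Npm1, which ran from 1532 CPM (1461 to 1605) to 2373 CPM (2273 to 2477).

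**Figure D4:**
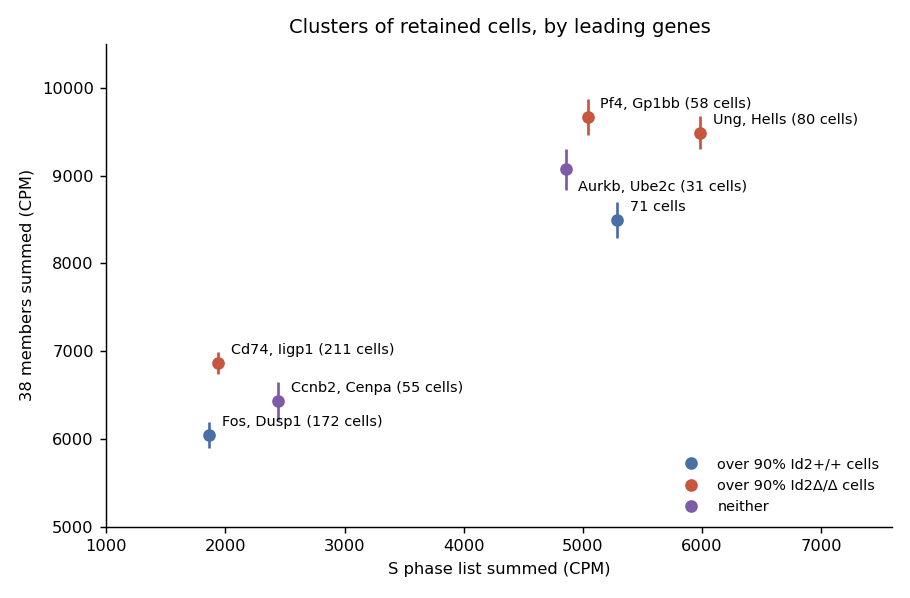
Summed level of the 38 members (CPM, with exact 95% counting intervals) against the summed level of the S phase list (CPM) in the 7 clusters of retained cells. Labels give leading genes or the number of cells alone. Blue and red mark clusters with nearly all cells from the Id2+/+ or the Id2Δ/Δ library, and purple marks a more mixed origin. The 4 clusters with 4856 to 5986 CPM of S phase genes have 8494 to 9671 CPM of the members and the other 3 have 6045 to 6867.

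To follow this within each library, the retained cells were ordered by the share of their UMIs in the S and G2/M lists together and divided into 3 equal groups (tertiles), which are ranges of a score and not cell types. In the Id2+/+ library the members took up 5703 CPM (5505 to 5905) in the lowest tertile, 6535 in the middle and 7957 (7779 to 8138) in the highest. In the Id2Δ/Δ library the levels were 6719 (6570 to 6871), 8237 and 9113 CPM (8983 to 9243). The highest tertile exceeded the lowest by 1.40-fold (1.34 to 1.45) and 1.36-fold (1.32 to 1.39). The ratio was above 1 for 34 of 36 members tested in the Id2+/+ library, against 49.3% of 7388 genes, and for 32 of 38 in the Id2Δ/Δ library, against 45.7% of 8960 genes. Median log2 ratios were 0.52 and 0.45 over the members and -0.02 and -0.08 over all genes. Depth moved with the score, from a median of 5943 UMIs per cell to 10106 in the Id2+/+ library and from 7784 to 13464 in the Id2Δ/Δ library. With cells thinned to 5800 UMIs before scoring, the fold was 1.33 and 1.30.

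Members with the widest difference between the tertiles included Nhp2, from 141 to 301 CPM in the Id2+/+ library and from 187 to 389 CPM in the Id2Δ/Δ library, ratios of 2.14 (1.66 to 2.78) and 2.09 (1.79 to 2.44). Nolc1 had ratios of 1.93 (1.37 to 2.77) and 2.01 (1.58 to 2.57), and Nop58 2.22 (1.69 to 2.95) and 1.67 (1.42 to 1.97). For all 3 genes the intervals lay well above 1 in both libraries. Of the 36 members with at least 100 UMIs, 28 were above 1 in both libraries, 20 were at least 25% higher in both and 16 had intervals above 1 in both, against 36.2%, 17.9% and 11.1% of the 6785 genes with as many UMIs. Pes1 was the member below 1 in both, with 0.867 (0.565 to 1.34) and 0.988 (0.747 to 1.32). Rrp1 had 0.884 (0.709 to 1.11) and 1.02 (0.886 to 1.19), a level that did not move with the score beyond counting error in either library.

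**Figure D5:**
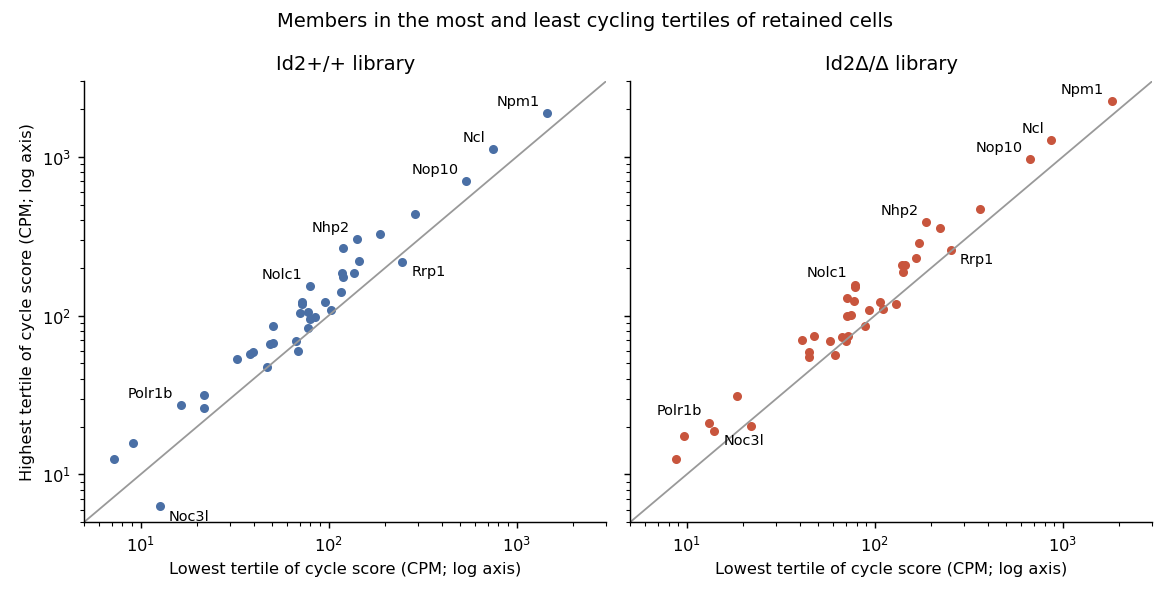
CPM of each member in the lowest tertile (horizontal) and the highest tertile (vertical) of retained cells by cycle score, in the Id2+/+ library (left) and the Id2Δ/Δ library (right), on log axes with the line of equal levels. Nhp2 and Nolc1 lie about 2-fold above the line in both libraries, and Rrp1 lies close to it.

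Myc encodes a transcription factor known to act on these genes, and the retained cells were also split by whether they held a Myc UMI after thinning to 5800 UMIs. In the Id2+/+ library the members took up 7168 CPM (6934 to 7409) in the 85 cells with a Myc UMI and 6816 CPM (6616 to 7020) in the 111 cells without, a ratio of 1.052 (1.01 to 1.10). In the Id2Δ/Δ library they took up 7804 CPM (7644 to 7967) in 200 cells and 7669 CPM (7517 to 7824) in 216, a ratio of 1.02 (0.989 to 1.047). Over 20 random draws of the thinning the ratio ran from 1.03 to 1.11 and from 1.002 to 1.07. A cell without a Myc UMI at this depth may still have held the transcript.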

How the data were processed

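The authors sorted stem cells from pooled bone marrow, made 1 10x Chromium library per genotype and deposited the counts of UMIs for each barcode and gene, without calling cells. The submitters' processing notes name Cell Ranger 2.2.0 and mm10. Counts were used as deposited, for 737280 barcodes and 27998 genes per library.

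Cells were barcodes with at least 10% of the 99th percentile of the 1000 deepest barcodes' UMIs and under 10% mitochondrial UMIs. Cells were clustered with scanpy 1.11.5 (2000 variable genes, 20 components, 15 neighbours, resolution 1, then 0.8 for retained cells). Clusters with at least 4 markers of another lineage were set aside, and those over 5% haemoglobin UMIs were called haemoglobin-rich. Scrublet marked 2 and 1 doublets, which were kept. A caller that marks so few cells has not been shown to work, so doublets are not accounted for. UMIs were summed per library and kind of cell and scaled to CPM. Ratios have exact conditional intervals, levels exact Poisson intervals and shares Clopper-Pearson intervals. Log2 ratios had 0.5 added to each count. Genes had at least 20 UMIs over both libraries, or 100 for rankings. No p-value was computed. TMM factors came from edgeR 4.0.16. The scripts were tested on simulated data.

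The named members were the 10 with the highest levels, the 5 highest and 5 lowest ratios between libraries, and the 3 highest and 3 lowest ratios of erythroid-like over retained cells, 20 in all. Others named were chosen after their values were seen. The members and all lists were chosen with earlier results of these data known. Positions are from RefSeq (GRCm38.p6). All 38 members matched by symbol. A planned search of promoters for an E-box was not run, and copies of these genes elsewhere in the genome were not examined. The leading gene of 1 cluster is not reported here.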

Additional observations from a re-analysis of the deposited data

Results flagged for a closer look

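Barcodes with more than 100 UMIs but too few to be called cells entered none of the comparisons, and a signal of the members was present in them. In the Id2+/+ library, 1610 such barcodes under 4393 UMIs held 6.07% of all UMIs, and the members took up 6918 CPM of them (6695 to 7148). In the Id2Δ/Δ library, 2231 barcodes under 6177 UMIs held 8.21% of all UMIs, and the members took up 6829 CPM (6693 to 6967). The level in the 2 libraries was alike within counting error, whereas that of the retained cells differed by a ratio of 1.19. The 2 sets ended at unlike depths and were not divided by kind of cell, so the contrast is not of matched cells. Mitochondrial genes took up 17.5% and 13.5% of the UMIs in these barcodes, against 2.45% and 2.16% in the retained cells. What these barcodes hold was not tested.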

How the results depend on the processing

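The summed ratio of the members in retained cells stayed above 1 in all 21 alternatives, from 1.11 to 1.30, and the members' median log2 ratio stayed above 0 where recomputed, from 0.0947 to 0.30. Of 360 recomputed ratios of named members, 329 stayed within their intervals. Across 1 went 1 ratio whose interval lay above 1, as Mrto4 had 0.927 in cells with Y-linked UMIs alone, and 29 ratios of 8 members whose intervals included 1, such as Polr1a with 1.20 when all called cells were kept.

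With TMM factors the summed ratio was 1.28, the median 0.27, members at least 25% higher were 15 (20.3% of all genes) and those at least 20% lower were 0, the median of the further pathway genes was 0.21, the erythroid-like ratio 1.14, and erythroid-like over retained cells 1.62 (Id2+/+) and 1.59 (Id2Δ/Δ). With median-of-ratios factors the first 5 values were 1.30, 0.30, 17 (22.4% of all genes), 0 and 0.24. With all called cells kept they were 1.22, 0.25, 9 (12.6%), 0 and 0.16. With free RNA subtracted the summed ratio was 1.24, the median 0.29, members at least 25% higher were 17 (16.3% of all genes), the pathway median 0.13 and Id2+/+ erythroid-like over retained cells 1.43. With cells thinned the summed ratio was 1.12, the median 0.11, the pathway median 0.0559, the erythroid-like ratio 1.06, Id2Δ/Δ erythroid-like over retained cells 1.30, and the high over low tertile of the cycle score 1.33 and 1.30. With cells averaged equally the erythroid-like ratio was 1.12 and Id2Δ/Δ erythroid-like over retained cells 1.30, which was also 1.30 with cells of at least 1000 UMIs and 500 genes.

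Without the 5% deepest cells the median was 0.20 and 8 members were at least 25% higher (14.0% of all genes). In cells with Xist alone the summed ratio was 1.13, the median 0.11, and 8 members were higher (18.35% of all genes) and 3 lower (24.7%) past the fold. In cells with Y-linked UMIs alone the summed ratio was 1.15, 10 members were higher (19.7%) and the pathway median was 0.0717. Of the alternatives chosen after seeing the data, the lowest tertile of the cycle score gave a median of 0.0947, 8 higher (20.9%), 0 lower (25.3%) and a pathway median of 0.0322. The highest tertile gave a summed ratio of 1.15, a median of 0.12 and 4 lower (25.7%). Tertiles limited by the same scores in both libraries gave a summed ratio of 1.14 in the lowest and 1.11 in the highest. The HSC-like clusters gave 1.15, a median of 0.13 and a pathway median of 0.0234.

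The high over low ratio of the cycle score was 1.28 (Id2+/+) and 1.26 (Id2Δ/Δ) when split at the median, 1.48 and 1.44 for the S list and 1.24 and 1.251 for the G2/M list. The Myc ratio without thinning was 1.13 (Id2+/+) and 1.10 (Id2Δ/Δ), its highest draw 1.11 and 1.07, and 1.054 in the Id2Δ/Δ library for at least 2 Myc UMIs. The causes of these shifts were not tested. No paired analysis was possible because there is only 1 library of each genotype, and none could be left out. Members with few UMIs, such as Noc3l and Polr1b, have intervals too wide to fix the size of a ratio.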
